A study of Mus musculus with 20 samples.

Results

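Duodenal mRNAs recovered with iron regulatory protein 2 (IRP2) were compared with those recovered in a control reaction without the protein, on the 4 arrays of duodenum among the 20 arrays of the series. The arrays were chosen by their titles, and each IRP2 array was paired with the control array of the same replicate number. Of the 45101 probe sets, groups of short probes that each read a stretch of a transcript, 64 manufacturer's controls and 20610 that lay below the median of their array on all 4 arrays were dropped. The 24427 kept held 20686 with 1 gene symbol (12925 genes), 591 with several symbols and 3150 with none. Those without a single symbol entered the fit and the counts and are given no name here.

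IRP2 and its relative IRP1 are cytoplasmic RNA-binding proteins that recognise iron-responsive elements (IREs), short stem-loops in the non-coding ends of certain mRNAs. An IRP on an element upstream of the coding sequence, as in the ferritin and ferroportin mRNAs, blocks translation, while binding downstream of it, as in the transferrin receptor mRNA, protects the message from decay. IRP2 is degraded when cells hold enough iron. The duodenum is where dietary iron enters the body: enterocytes take it up through the apical transporter DMT1 (Slc11a2) and release it to blood through ferroportin (Slc40a1), and both mRNAs have forms with an IRE.

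In the IRP2 group, total RNA of duodenum was mixed with purified His-tagged IRP2 made in E. coli, and the complexes were recovered with a mouse monoclonal antibody against the tag. The control group differed by the omission of the recombinant protein. All the RNA came from pooled duodena of 4 C57BL6/J mice, female and male, kept after weaning on chow holding below 10 mg of iron per kg for 21 days. Each reaction used 50 µg of RNA, and 120 ng of what was recovered was amplified, biotin-labelled and hybridised to an Affymetrix whole-genome mouse array. The ratio therefore reads recovery of naked RNA by added protein in vitro, not complexes formed in the tissue. There were 2 arrays per group, and the labels do not say whether the replicates came from separate pools, so p-values reflect array-to-array spread, which may be technical. The other groups, IRP2 and control reactions of liver and spleen (iron-poor diet) and of bone marrow and brain (6 mice each, 8 to 10 weeks old, iron-normal diet), enter through the shared estimate of spread and in the comparison across tissues.

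The deposited values are log2 levels. Array medians in duodenum lay between 5.66 and 5.71. Spearman correlations between the 4 arrays over the kept probe sets were 0.978 and 0.979 within the pairs and 0.940 to 0.966 otherwise, so the arrays resembled their partner more than the other array of their group. Enterocyte markers were present, with 10 of 12 measured at a median level of 12.67, and so were pancreas acinar markers, with 9 of 12 measured at a median of 12.49. Of the erythroid markers, 1 of 8 was measured, Klf1 at 5.98, while 3 were dropped as dim and 4 had no probe set with a single symbol. Three-prime probe sets of Gapdh exceeded the five-prime ones by 4.48 to 4.52 on the IRP2 arrays and by 4.60 to 4.62 on the control arrays, while for Actb the gap was 4.67 and 4.95 on the IRP2 arrays, against 4.62 and 5.19 on the control arrays. Probe sets for bacterial polyadenylated RNAs, which are added as labelling controls, had a median log2 ratio of IRP2 to control reaction of 1.13 in replicate 2 and 0.17 in replicate 1; its part in the results was not tested. For marker levels in bulk samples, fewer cells of a type and less RNA per cell cannot be told apart.

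A small set of transcripts was recovered at much higher levels with IRP2, and far fewer were called lower. By limma with replicate pairs as a block, 87 probe sets were higher with IRP2 (0.356% of those tested) and 3 were lower (0.0123%) at an adjusted p under 0.05. Of the 87, 76 were at least 2-fold higher, 13 at least 4-fold, and the lowest log2 ratio among them was 0.78. The 74 with a single symbol belonged to 62 genes, 4 had several symbols and 9 none. Both pairs were above 0 for all 87. At an unadjusted p under 0.05 the counts were 1192 higher and 469 lower, but 941 and 813 after quantile normalization, which moved the median log2 ratio of all kept probe sets to -0.01.

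Among small ratios the balance of higher to lower thus depended on the scaling, which applies to the following counts too. In 3598 probe sets (14.7%) both IRP2 arrays lay above both control arrays, among them all 87 called ones, and in 1897 (7.77%) both lay below. At least 2-fold in both pairs, 65 probe sets were higher (0.266%) and 0 lower, and 9 of the 65 were not called. As deposited, the median log2 ratio of all kept probe sets was 0.05, with the 1st percentile at -0.44 and the 99th at 0.65. Called probe sets came from the whole range of kept control levels: in 5 equal bins of control level, from dim to bright, they numbered 19, 13, 12, 20 and 23. A probe set below the median on both control arrays was kept only if an IRP2 array reached it. The count of 19 in the dimmest bin therefore depends partly on the filter.

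**Figure D1:**
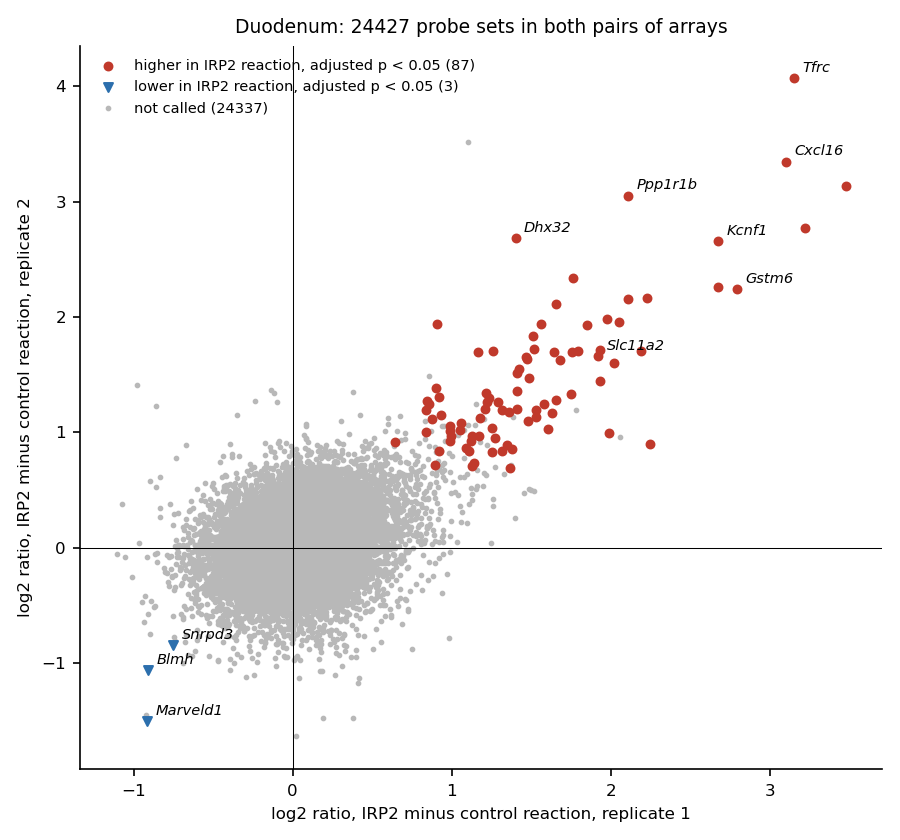
Log2 ratio of IRP2 to control reaction in replicate 1 (x axis) and replicate 2 (y axis) for the 24427 kept probe sets, with the 87 called higher in red, the 3 called lower as blue triangles and the rest in grey. The red points lie far out in the upper right, reaching 3.15 and 4.07 for Tfrc, while the ratios of all kept probe sets have an SD of 0.257 in replicate 1 and 0.282 in replicate 2.

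The counts depended on how the spread was estimated. A fit that ignored the pairing had 23 higher and 0 lower, and the 4 duodenum arrays alone, with the replicate block, gave 320 and 53. Bone marrow replicate 1 had the widest ratios of the series, with an SD of 0.579 against 0.257 and 0.282 in duodenum, and without the 4 bone marrow arrays 450 were higher (1.84%) and 103 lower (0.422%). All 87 were among the 450 and among the 320. Leaving out replicate 1 of duodenum left 14 higher and 0 lower, and leaving out replicate 2 left 18 and 0, with the lone pair assumed to vary like the others.

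Of 8 mRNAs that textbooks list with an IRE, 6 had a kept probe set with 1 symbol, and 4 of the 6 had at least 1 probe set higher with IRP2: Tfrc, Slc11a2, Slc40a1 and Epas1. Of all 12925 genes, 62 did (0.48%), a count that favours genes with several probe sets, such as Slc11a2 with 4. On each gene's brightest probe set, 1 of the 6 was called, Tfrc (45 of all genes, 0.348%), all 6 ratios were above 0, and their median was 0.65 against 0.05 for all kept probe sets. The list was chosen because these mRNAs are known IRP ligands. The probe sets with several symbols included 2 called ones with log2 ratios of 3.31 and 3.00, which rank among the 4 highest of all.

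For iron uptake, Tfrc, the transferrin receptor that brings transferrin-bound iron into cells, held the highest ratio of all kept probe sets. Its leading probe set stood at 9.14 and 10.51 log2 units in the IRP2 reactions, against 5.99 and 6.44 in the control reactions. The groups were far apart, at a log2 ratio of 3.61 ± 0.32 (SE, n = 2 arrays per reaction, as throughout), a 12.2-fold enrichment (limma, adjusted p = 0.000221). The brightest Tfrc probe set gave 13.54 and 13.72 with IRP2, against 11.35 and 12.01 in control (log2 ratio 1.95 ± 0.19, adjusted p = 0.000545). Both groups were clear of each other on this probe set too, but it was not called without replicate 1 (adjusted p = 0.0764). The third, with IRP2 levels of 5.10 and 7.18 and dim control levels of 3.999 and 3.66, was not called (2.31 ± 0.53, adjusted p = 0.137), and its pairs differed widely, at 1.10 and 3.52. It was called without the bone marrow arrays (adjusted p = 0.00993), with the iron-poor tissues alone (0.00164) and with the duodenum arrays alone (0.000357).

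Slc11a2, the proton-coupled importer of dietary iron, was split among its 4 probe sets. One read 12.54 and 12.56 in the IRP2 reactions, against 10.62 and 10.90 in the control reactions, a log2 ratio of 1.79 ± 0.23 (limma, adjusted p = 0.00347) or 3.46-fold. The brightest gave 0.74 ± 0.15 (adjusted p = 0.0737), with both IRP2 arrays (12.30 and 12.47) above both controls (11.40 and 11.90), and was called without the bone marrow arrays (adjusted p = 0.00393). Another gave 0.45 ± 0.15, and the dimmest -0.22 ± 0.18, with overlapping groups. The gene is known to produce messages with and without the IRE through alternative last exons; which of these each probe set reads is not annotated in the files used here.

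For iron export, the mRNA of ferroportin, Slc40a1, was enriched on one probe set and not called on the other. The first read 12.61 and 13.11 with IRP2, against 10.93 and 11.48 in control (1.65 ± 0.17, limma, adjusted p = 0.000594). The brighter one read 13.28 and 13.48 with IRP2, against 12.94 and 13.43 in control, and its ratio of 0.19 ± 0.20 was within its error. Duodenal enterocytes are known to make a ferroportin message that lacks the IRE as well as the form that carries it, and the files do not say which form either probe set reads.

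For iron storage, neither probe set of the ferritin heavy chain gene Fth1 was called, although both lay higher with IRP2 in both pairs. The first read 14.09 and 14.32 in the IRP2 reactions, against 13.34 and 13.48 in the control reactions (0.80 ± 0.17, limma, adjusted p = 0.0954). The other read 14.09 and 14.20, against 13.25 and 13.86 (0.59 ± 0.23, adjusted p = 0.622). The groups did not overlap on either, and both were called without the bone marrow arrays (adjusted p = 0.00541 and 0.0218). They are among the brightest of the array, where the highest mean control level of any kept probe set was 14.97.

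Epas1 encodes HIF-2α, the hypoxia-inducible factor that drives iron absorption genes in the enterocyte. Its dimmer probe set read 7.40 and 7.97 with IRP2, against 6.54 and 6.73 in control (1.05 ± 0.17, limma, adjusted p = 0.0196). The brighter one read 10.98 and 11.67, against 10.36 and 10.88 (0.71 ± 0.18, adjusted p = 0.205, and 0.0173 without the bone marrow arrays). On both probe sets each pair was above 0. Alas2, the erythroid form of the enzyme that starts heme synthesis, read 7.14 and 7.07 with IRP2, against 7.16 and 6.75 in control, so its groups overlapped (0.15 ± 0.19, adjusted p = 0.943).

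**Figure D2:**
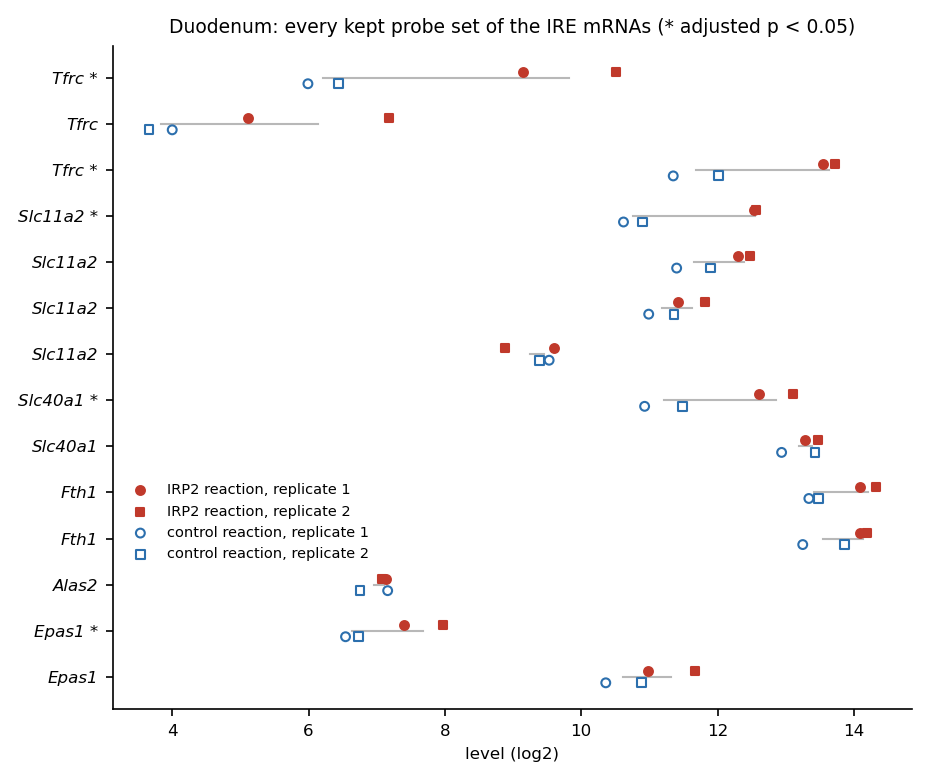
Log2 levels (x axis) of the 14 kept probe sets of the 6 measured IRE mRNAs on the 4 duodenum arrays, IRP2 reactions as filled red points above control reactions as open blue points, with a grey line between group means and an asterisk for an adjusted p under 0.05. Tfrc has the longest lines, while 1 probe set each of Slc11a2 and Slc40a1 shows IRP2 points clear of the controls and others of the same genes do not.

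The 20 genes with the highest called ratio held 3 of the IRE mRNAs (Tfrc, Slc11a2 and Slc40a1) and 17 other genes. Next to Tfrc stood Cxcl16, a chemokine made as a membrane protein, at 9.67 and 10.14 in the IRP2 reactions, against 6.57 and 6.80 in the control reactions. Its log2 ratio was 3.23 ± 0.17, a 9.36-fold enrichment with the smallest adjusted p of all, 4.96e-06 by limma. The second Cxcl16 probe set gave 1.98 ± 0.19 (adjusted p = 0.000336). On both probe sets the groups were far apart.

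Kcnf1, a modulatory subunit of voltage-gated potassium channels, read 6.22 and 6.56 with IRP2, against 3.54 and 3.90 in control (2.67 ± 0.23). Its control level was far below the 10th percentile of 5.74 for kept probe sets, so the size of that ratio is uncertain. The same limit holds for Gstm6, Csf2rb, the leading probe set of Lrpap1 and both of Egr2, with mean control levels of 4.96 to 5.68. Ppp1r1b, which encodes an inhibitor of a protein phosphatase, read 9.003 and 9.996 with IRP2, against 6.89 and 6.94 in control (2.58 ± 0.19). Gstm6, a mu-class glutathione transferase, read 7.91 and 8.02 with IRP2, against 5.11 and 5.78 in control (2.52 ± 0.24). In each of these the 2 groups were separated by more than 2 log2 units.

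Lrpap1, the chaperone of LDL receptor family proteins, was called on 2 of 4 probe sets, at 2.47 ± 0.23 and 1.48 ± 0.16, while its other probe sets gave 0.37 and 0.31. Nt5c, a nucleotidase of the cytosol, read 11.45 and 11.60 with IRP2, against 9.22 and 9.44 in control (2.20 ± 0.23). Both probe sets of Egr2, a zinc-finger transcription factor, were called, at 2.13 ± 0.25 and 2.05 ± 0.23. Dhx32, a member of the DEAH-box helicase family, gave 2.04 ± 0.26 with unequal pairs of 1.40 and 2.69, and its second probe set 0.25 ± 0.21. Shisa2, a regulator of receptor maturation in the endoplasmic reticulum, was called on both probe sets, at 2.01 ± 0.18 and 1.43 ± 0.21.

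The rest of the 20 lay between 1.62 and 1.89, 3.08-fold to 3.69-fold. They were Hmces, which crosslinks to abasic DNA (1.89 ± 0.16), the nuclear deubiquitinase gene Bap1 (1.82 ± 0.24), Csf2rb, the shared beta chain of several cytokine receptors (1.81 ± 0.21), and Arfip2, a partner of Arf and Rac GTPases (1.75 ± 0.15). Fam98b, part of the tRNA ligase complex, gave 1.73 ± 0.21, and Trp53inp2, a regulator of autophagy, 1.67 ± 0.28. Chmp2b, a subunit of the ESCRT machinery of membrane scission, gave 1.67 ± 0.17, and Taf10, a subunit of the general transcription factor TFIID, 1.62 ± 0.17. The second probe sets of Csf2rb and Taf10 were not called, at 0.49 and 0.53. Slc11a2 and Slc40a1 complete the 20. For all 20 leading probe sets, as for all 87 called ones, both IRP2 arrays lay above both control arrays, against 14.7% of kept probe sets. The 20 were chosen by their ratio and call, so this is no separate support. The adjusted p-values by limma ran up to 0.0234 for Trp53inp2.

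With the median required on all 4 duodenum arrays, 15 of the 20 were called. The leading probe sets of Kcnf1, Gstm6, Lrpap1, Egr2 and Csf2rb were dropped by that filter. Kcnf1 and the leading probe set of Lrpap1 reached the median with IRP2 only. The calls of the 20 also leaned on both pairs of arrays. Without replicate 1 of duodenum 8 of the 20 were still called, without replicate 2 it was 9, and without the replicate block 13. Tfrc, Cxcl16, Kcnf1, Ppp1r1b, Shisa2, Hmces and Arfip2 were called in each of these 3 fits.

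**Figure D3:**
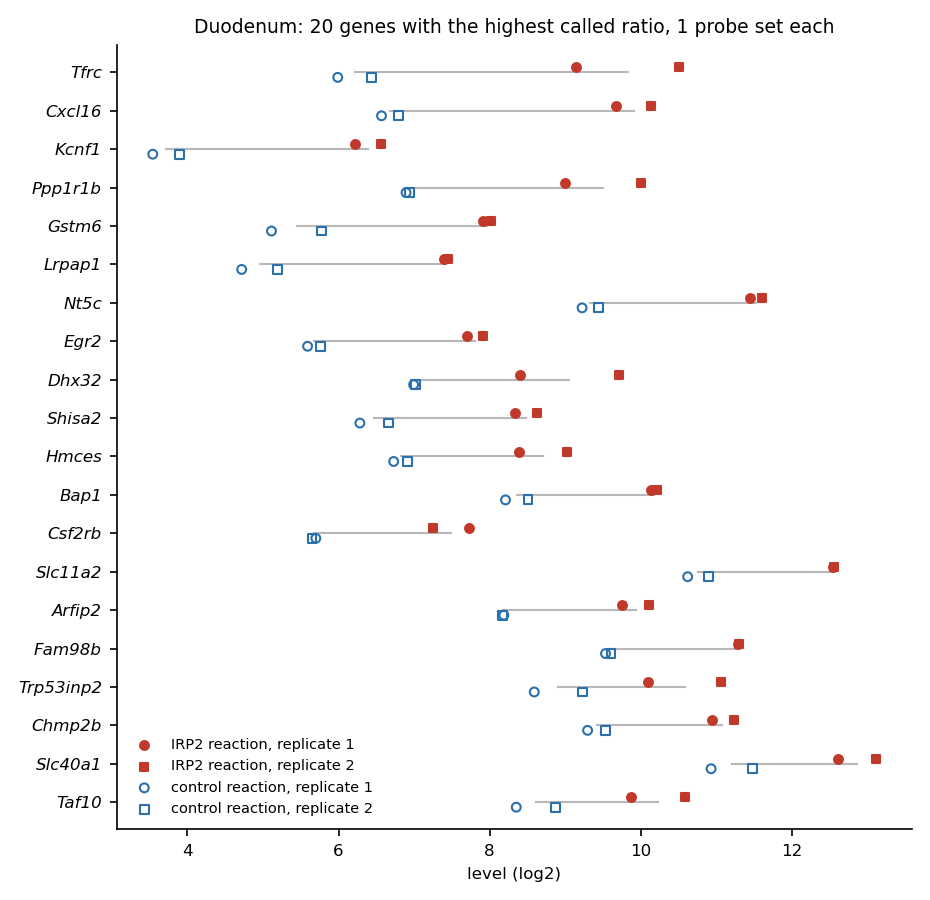
Log2 levels (x axis) on the 4 duodenum arrays for the leading probe set of each of the 20 genes with the highest called ratio, ordered from highest to lowest, with IRP2 reactions as filled red points above control reactions as open blue points and a grey line between group means. All red points lie to the right of the blue points of the same gene, as for all 87 called probe sets, over control levels from 3.54 for Kcnf1 to 11.48 for Slc40a1.

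The other 42 genes called higher had log2 ratios between 0.78 and 1.57, and some of them are described here, named after their values were seen. Gstt3, a theta-class glutathione transferase, read 9.68 and 9.75 in the IRP2 reactions, against 8.21 and 8.11 in the control reactions (1.55 ± 0.16, limma, adjusted p = 0.000594). Pdcl3, a phosducin-like protein, read 10.51 and 10.98 with IRP2, against 9.02 and 9.51 in control (1.48 ± 0.22, adjusted p = 0.00869). In both genes the groups were at least 1 log2 unit apart in each pair. Ap1m1, a subunit of a clathrin adaptor, gave 1.47 ± 0.24, and Ralgapa1, a subunit of a GTPase activator for Ral, 1.42 ± 0.22 with unequal pairs of 0.91 and 1.94, and 0.66 and 0.48 on its uncalled probe sets.

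The ubiquitin ligase gene Mkrn1 was called on 2 of 6 probe sets, at 1.36 ± 0.25 and 1.14 ± 0.21, and its other probe sets ranged from 0.22 to 0.84. Dhx9, an RNA helicase, read 12.31 and 12.06 with IRP2, against 10.83 and 10.96 in control (1.29 ± 0.20, limma, adjusted p = 0.0149). The glucocorticoid receptor gene Nr3c1 gave 1.03 ± 0.19 and the lipoprotein lipase gene Lpl 1.02 ± 0.16. Lpl read 9.71 and 9.45 with IRP2, against 8.87 and 8.25 in control, so its groups did not overlap, while Nr3c1 had uneven pairs of 1.36 and 0.69. The uncalled probe sets of Nr3c1 gave 0.92 and 0.23.

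Many called genes had both called and uncalled probe sets, and the differences between probe sets of a gene were not tested. Of the 62 genes called higher, 22 had a single kept probe set and 40 had more than 1. All probe sets were called in 8 of the 40: Cxcl16, Egr2, Shisa2, Trp53inp2 and Chmp2b above and, named after their values were seen, Pfn2, an actin-binding profilin (3 probe sets, 1.47, 1.32 and 1.205), Cct7, a subunit of the cytosolic chaperonin (1.28 and 0.98), and Aagab, an assembly factor of clathrin adaptors (1.06 and 1.04). In the remaining 32 genes at least 1 probe set was not called, and in 17 of the 40 the brightest was not. The second probe sets of Egr2 and Shisa2 passed the filter through the IRP2 arrays only.

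The 58 uncalled probe sets of the called genes had a median log2 ratio of 0.24, with 45 above 0 and 41 below 0.5. They reached as high as 2.31 for Tfrc, 1.51 for Dhx9, above the 1.29 of its called probe set, and 1.10 for Bap1. The Dhx9 one, with control levels of 5.36 and 5.465, and the Tfrc one reached the median with IRP2 only, so these ratios are uncertain. The widest splits, chosen after their values were seen, included Pcsk5, a proprotein convertase, with 1.54 ± 0.18 on one probe set and -0.28 to 0.08 on its other 3. Ppp2r5c, a regulatory subunit of a protein phosphatase, had 1.12 ± 0.20 on its called probe set and -0.76 ± 0.15 on its lowest (limma, adjusted p = 0.0737). Arfip2 had 0.02 ± 0.14 on its second probe set.

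The 3 probe sets lower with IRP2 were single probe sets of genes whose other probe sets were not called. Marveld1, a membrane protein with a MARVEL domain, read 8.15 and 7.89 with IRP2, against 9.06 and 9.39 in control (-1.21 ± 0.18, limma, adjusted p = 0.00905), and its other probe sets gave -0.25 and -0.05. Blmh, a cysteine protease, read 8.60 and 8.85, against 9.51 and 9.91 (-0.98 ± 0.16, adjusted p = 0.0217), with 0.09 on its second probe set. Snrpd3, a core protein of spliceosomal particles, read 6.78 and 5.92, against 7.53 and 6.76 (-0.80 ± 0.14, adjusted p = 0.0295). Its groups overlapped and the call came from the agreement of the pairs, at -0.75 and -0.84, while its other probe sets gave 0.22 and 0.02. None of the 3 was called without the replicate block or without either duodenum replicate.

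Genes of iron handling that lack a canonical IRE had ratios near 0. Of 22 measured out of 25, 0 were called in either direction, which at 0.356% of probe sets called higher and 0.0123% lower sets neither these genes nor the other lists below apart from the rest. Their median log2 ratio was 0.02, with a range of -0.24 to 0.39. The ferric reductase gene Cybrd1 read 12.43 and 12.71 in the IRP2 reactions, against 12.24 and 12.87 in the control reactions, so the groups overlapped (0.02). Heph, the ferroxidase that works with ferroportin, gave 0.39, Hmox1, which breaks down heme, -0.18, and the heme exporter gene Flvcr1 0.07.

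Heme synthesis (7 of 8 measured, median 0.16) and iron-sulfur cluster assembly (12 of 16, median 0.03) also had 0 genes called. Alas1, the housekeeping counterpart of Alas2, gave 0.16, Alad 0.39, Uros 0.07 and Urod 0.33. The scaffold gene Iscu gave 0.03, the sulfur donor Nfs1 0.20, Glrx5 0.02 and Isca1 0.24. Of 4 measured mRNAs from a list reported elsewhere with IRP binding, 0 were called: Cdc14a gave 0.26, Cdc42bpa 0.11, App -0.12 and Ndufs1 0.05. By limma, the smallest adjusted p in these 3 lists was 0.833.

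Abundant transcripts of the tissue also had ratios near 0. Nutrient transport and brush border genes (23 of 25 measured, median 0.01) had 0 called, with Lct at 0.01, Treh at 0.31, Dpp4 at 0.14 and Enpep at -0.05. The medians were 0.09 for 15 citrate cycle genes, 0.03 for 15 cytosolic ribosomal protein genes and -0.02 for 7 housekeeping genes, all with 0 called.

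The cell type marker lists likewise had 0 genes called among enterocyte (10 measured, median 0.0044), goblet (7, -0.02), Paneth (4, 0.06), enteroendocrine and tuft (8, 0.12), Brunner gland and pyloric (5, -0.04), pancreas acinar (9, 0.05), smooth muscle (8, 0.11), immune (8, 0.05) and erythroid (1, 0.14) markers. The log2 of the summed level of the enterocyte list was 15.82 and 16.15 in the IRP2 reactions, against 15.65 and 16.31 in the control reactions. For the pancreas list it was 16.04 and 15.96, against 15.77 and 15.98. The groups overlap on both sums. The enterocyte median was 0.18 in replicate 1 and -0.20 in replicate 2, so the pairs pointed opposite ways. The widest marker ratios were 0.73 for Myh11 and -0.56 for Cnn1, both contractile proteins of smooth muscle and both not called.

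**Figure D4:**
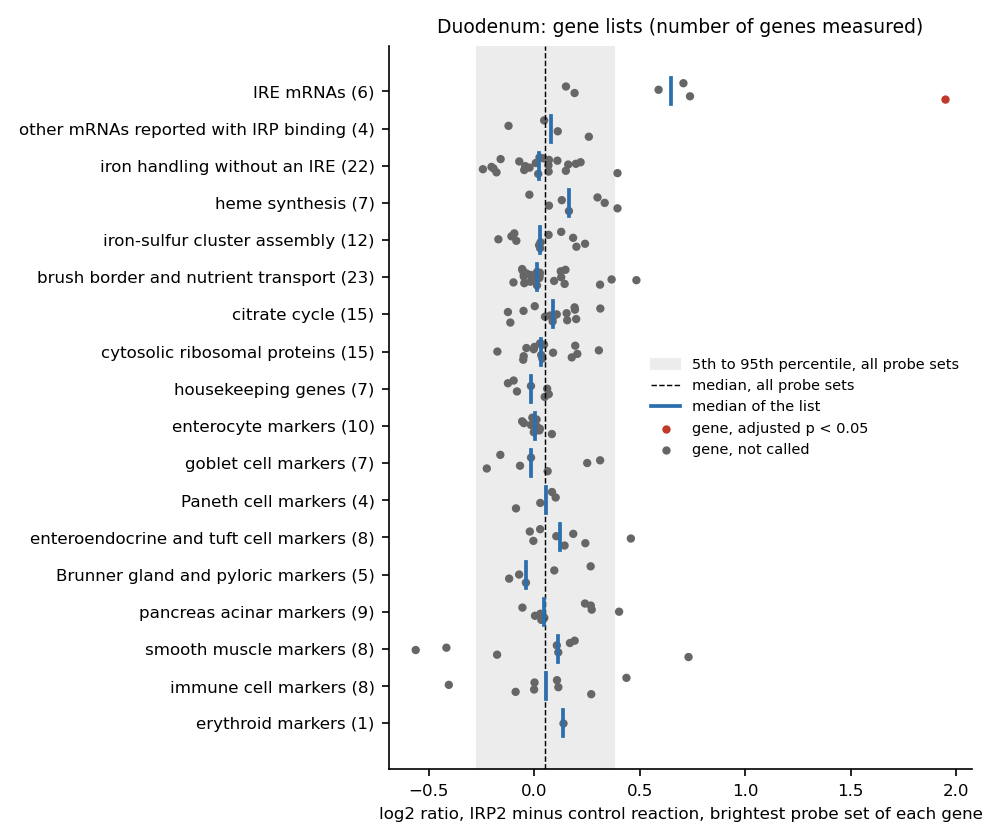
Log2 ratio of IRP2 to control reaction (x axis) for each measured gene of 18 lists on its brightest probe set, with the list's median as a blue bar, called genes in red, and the 5th to 95th percentile of all kept probe sets (-0.27 to 0.38) as a grey band. The median of the IRE mRNAs, 0.65, is the only one outside the band; the other medians lie between -0.04 and 0.16.

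Most probe sets called in duodenum had ratios above 0 in the other tissues too, each with its own control reactions, and no calls were made there. Of the 87, the liver ratio was above 0 for 82, the spleen ratio for 85, the bone marrow ratio for 74 and the brain ratio for 80, and all 4 were for 68. Over all kept probe sets the shares above 0 were 38.4% for liver, 42.8% for spleen, 42.7% for bone marrow and 42.5% for brain, and 7.67% for all 4. Of the 87, the liver log2 ratio was at least 1 for 44, the spleen one for 51, that of bone marrow for 14 and that of brain for 33. The median log2 ratio of the 87 was 1.36 in duodenum, against 1.01 (liver), 1.14 (spleen), 0.50 (bone marrow) and 0.78 (brain). The 87 were chosen on the duodenum ratio, which favours duodenum in this comparison. The duodenum ratio was the highest of the 5 tissues for 51 of the 87, and for 39.8% of all kept probe sets.

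The duodenum ratio differed from the mean ratio of the other tissues for 3 probe sets by limma at an adjusted p under 0.05, 2 higher (0.00819%) and 1 lower (0.00409%), with 1446 and 569 at an unadjusted p under 0.05. After quantile normalization these unadjusted counts were 890 and 1029, so the majority changed direction. Alas2 was the lower one. Its log2 ratio was 0.15 in duodenum, against 2.13 (liver), 2.07 (spleen), 0.94 (bone marrow) and 2.31 (brain), a difference of -1.71 ± 0.21 (adjusted p = 0.0381). Mean control levels were 6.96 in duodenum and 7.49, 11.31, 11.11 and 6.26 in those tissues in the same order. In brain both IRP2 arrays (8.80 and 8.35) lay above both controls (6.38 and 6.14). Array medians were 5.66 to 5.71 in duodenum and 5.41 to 5.67 in brain, so levels set across tissues are approximate.

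The higher ones were Ppp1r1b and Slc23a4, a gene known in rat for an intestinal nucleobase transporter. Ppp1r1b had 2.58 in duodenum and 2.24 in brain, against 0.44 in liver, -0.05 in spleen and 0.19 in bone marrow, a difference of 1.88 ± 0.22 (limma, adjusted p = 0.0374). Duodenum and brain thus lay close together and the difference came from the remaining tissues, where control levels were 5.30 to 6.14, against 6.92 in duodenum and 7.47 in brain.

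Slc23a4 read 9.61 and 10.39 in the duodenal IRP2 reactions, against 7.98 and 9.23 in the control reactions (1.40 ± 0.17), and the ratios elsewhere were between -0.22 and 0.05. The difference was 1.44 ± 0.19 (limma, adjusted p = 0.0381). Its mean control level was 8.60 in duodenum and 4.15 to 4.77 in the other tissues, below the 10th percentile of the control levels of the kept probe sets in each of them; the part of this in the difference was not tested. None of the 3 differences was called without the replicate block, and without replicate 2 of duodenum none of them was (adjusted p = 0.306 for Ppp1r1b). Ppp1r1b alone of the 3 was called without replicate 1.

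Without the bone marrow arrays the difference was called for 19 probe sets higher (0.0778%) and 4 lower (0.0164%). Besides the 3 above, and named after their values were seen, these included Dhx32 at 1.59 ± 0.24, the epithelial transcription factor gene Ehf at 1.38 ± 0.21, Gstm6 at 1.36 ± 0.22, Kcnf1 at 1.32 ± 0.15 and Pcsk5 at 1.199 ± 0.18 (limma, adjusted p = 0.00104 to 0.0162). The difference is from a mean, and single tissues matched or exceeded duodenum: Gstm6 had a log2 ratio of 2.52 in duodenum and 2.62 in liver, and Kcnf1 2.67 in duodenum and 3.13 in brain. Pcsk5 had 1.54 in duodenum and 1.07 in liver. Ehf had a second kept probe set, with a mean control level of 7.14 in duodenum, that was not called. Its log2 ratio was 0.15 (limma, adjusted p = 0.942), and its difference in the fit of all arrays was 0.19 (adjusted p = 0.722). In that fit the second probe set of Dhx32 had a difference of 0.14 (limma, adjusted p = 0.829). The uncalled probe sets of Pcsk5 had -0.16 to 0.03. On the lower side stood Ino80d, a subunit of a chromatin remodelling complex, at -0.87 ± 0.14, and Snrpd3 at -0.88 ± 0.14. The Ino80d ratio was above 0 in duodenum too, at 0.66, against 1.27 (liver), 2.17 (spleen) and 1.15 (brain). That of Snrpd3 was -0.80 in duodenum, against 0.22, -0.03 and 0.05 in the same order. Mean control levels of the called Ehf probe set were 6.63 in duodenum and 3.50, 3.35 and 2.91 in liver, spleen and brain. These 3 lay below the 10th percentile of control levels in their tissues. In spleen and brain so did the control levels of Gstm6 (4.17 and 4.13) and of the called Pcsk5 probe set (4.21 and 5.105). The part of this in the differences was not tested. Control levels of Kcnf1 were 3.72 in duodenum, 2.50 to 3.20 in liver, spleen and bone marrow, and 8.07 in brain. Tissue cannot be told apart from diet and age for brain and bone marrow.

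**Figure D5:**
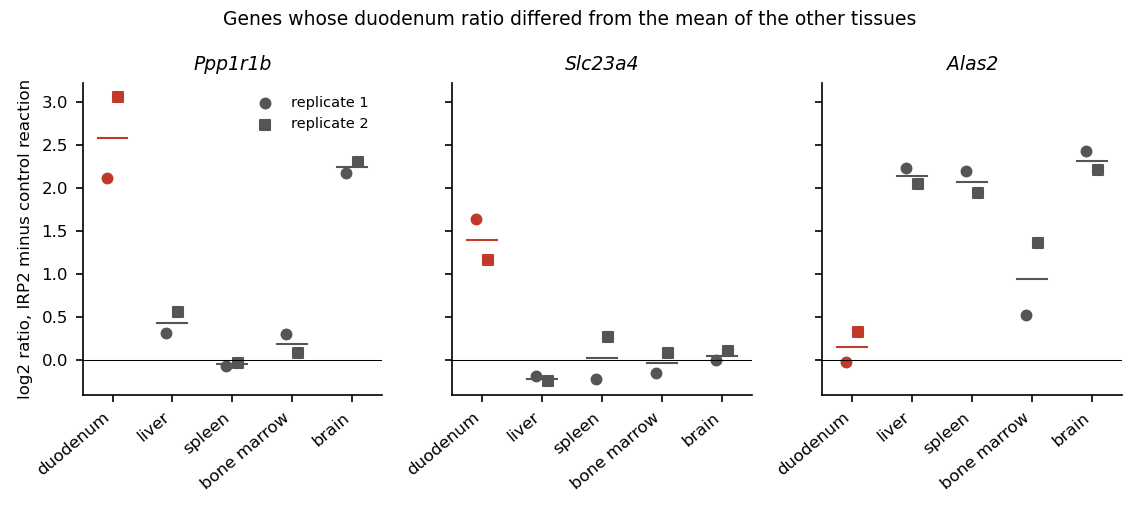
Log2 ratio of IRP2 to control reaction (y axis) by tissue (x axis, duodenum first) for Ppp1r1b, Slc23a4 and Alas2, with replicate 1 as circles, replicate 2 as squares and the mean as a bar, duodenum in red. Ppp1r1b is high in duodenum and brain, Slc23a4 in duodenum, and Alas2 near 0 in duodenum and between 0.94 and 2.31 on average elsewhere.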

How the data were processed

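Log2 probe set values of 20 arrays were used as deposited; per the series' design text the authors computed them with RMA in Bioconductor or with MAS5 in GCOS followed by quantile normalization, and versions are not given in the sources used here. Log2 summaries compress ratios near background and near saturation. Symbols came from the platform annotation; 34754 of 34958 single-symbol probe sets matched RefSeq by gene ID.

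Kept probe sets reached the median of their array on at least 1 of the 4 duodenum arrays. All 20 arrays entered 1 fit with limma 3.58.1 (R 4.3.3), which had an IRP2 effect per tissue, tissue by replicate number as a block, 5 residual and 7.17 prior degrees of freedom. Benjamini-Hochberg adjustment ran over the 24427 probe sets of each contrast. Python 3.11.15, pandas 2.3.3 and matplotlib 3.10.9 made tables and figures. The fit was tested on simulated data.

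Replicate numbers come from the labels, which state that controls ran in parallel. Same-numbered arrays deviated together from their group means, at correlations of 0.698 (duodenum), 0.605 (liver), 0.385 (spleen), 0.24 (bone marrow) and 0.924 (brain), so the numbers were taken as pairs.

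Named genes were every measured IRE mRNA with all its probe sets, the 20 highest and up to 10 lowest called genes with the same sign in both pairs, the first 4 measured members and every called member of each list described, and up to 10 higher and 5 lower genes of the tissue difference. The text says where another gene was named after its values were seen. The members and lists were chosen with earlier results of these data known. Alternatives changed the block, the arrays in the fit, the filter, the normalization and the variance prior, or left out a replicate pair. The number of arrays limits the precision. Sequences of the binding elements were not used here.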

Additional observations from a re-analysis of the deposited data

Results flagged for a closer look

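The duodenum ratio differed from the mean of the other tissues, by a test of the difference itself, for Ppp1r1b (1.88), Slc23a4 (1.44) and Alas2 (-1.71), on the log2 scale.

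The Affymetrix control probe sets, which no comparison above uses, include 3 for the mouse transferrin receptor, and all 3 were above their control reactions. The mean log2 ratio was 2.52 on the three-prime probe set, 1.72 on the middle one and 1.12 on the five-prime one, with levels of 6.96 and 8.47 in the IRP2 reactions, against 5.01 and 5.37 in the control reactions, on the first. The pairs differed on each of them, with 1.95 and 3.10 on the three-prime probe set and 0.43 and 1.82 on the five-prime one. The three-prime probe set exceeded the five-prime one by 3.61 and 3.90 in the IRP2 reactions, against 2.08 and 2.62 in the control reactions. The five-prime one read 3.35 and 4.57 with IRP2, against 2.93 and 2.76 in control, below the array medians on all arrays, so its ratio and these gaps are uncertain in size.

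The 24 probe sets for bacterial polyadenylated RNAs, which laboratories add to a sample before labelling, were higher in the IRP2 reaction of replicate 2. Their median log2 ratio was 1.13 in that pair, with 24 of 24 above 0 and a range of 0.54 to 1.81, and 0.17 in replicate 1. The 18 probe sets for hybridization spikes had medians of 0.15 in replicate 2 and 0.21 in replicate 1. Over the kept probe sets the median ratio was 0.05 in replicate 2 and 0.06 in replicate 1. The part of the spike difference in the results was not tested.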

How the results depend on the processing

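Of the 53 named probe sets, 32 were called; 15 of those lost the call without the replicate block, 22 without replicate 1, 20 without replicate 2 and 4 after quantile normalization. Calls were gained by 5 with the duodenum arrays alone and by 7 each without the bone marrow arrays and with the iron-poor tissues alone, among Tfrc, Bap1, Slc11a2, Taf10, Fth1 and Epas1. With the replicate block left out, 23 probe sets were higher and 0 lower (299 and 51 at an unadjusted p under 0.05), all 23 among the 87, and the tissue difference gave 0 and 0 (145 and 49 at an unadjusted p under 0.05). Counts higher and lower were 320 and 53 with the duodenum arrays alone, 450 and 103 without the bone marrow arrays, 447 and 96 with the iron-poor tissues alone, and 54 and 6 after quantile normalization, where 52 of the 54 were among the 87. Leaving out a replicate pair gave 14 to 18 higher and 0 lower; by limma at an unadjusted p under 0.05 there were 799 and 408 without replicate 1 and 604 and 270 without replicate 2. The tissue difference gave 19 higher and 4 lower without the bone marrow arrays, 18 and 9 with the iron-poor tissues alone, and 1 and 1 after quantile normalization. With the duodenum arrays alone the fit had 1 residual and 16.3 prior degrees of freedom and a median SE of 0.138. The main fit had 5, 7.17 and 0.168. The cause of the changes in counts was not tested. Without the filter 85 were higher, 84 of them shared, and with the filter on all 4 arrays 73.

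Ratios that changed sign were all of uncalled probe sets. Leaving out 1 replicate pair or the other gave -0.0612 to 0.557 for Dhx32, -0.503 to 0.0719 for Slc11a2, -0.00888 to 0.0393 for Arfip2, -0.426 to 0.317 for Marveld1 and -0.0192 to 0.320 for Alas2, and quantile normalization gave -0.0680 for Arfip2 and -0.0634 for Snrpd3. Quantile normalization set the median ratio of all probe sets to -0.01. Of the list medians under the alternatives, 171 moved by less than the median SE and 9 by more, all without 1 replicate; the median of the IRE mRNAs was 0.46 without replicate 1.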
